A study of Mus musculus with 15 samples.

Results

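The nuclear genes of respiratory complex I were followed through 15 mouse brain libraries. All 45 gene symbols of the form Nduf plus a subunit letter or af plus a number were taken, out of 45777 symbols in the count files, and all 45 had at least 10 reads in at least 3 libraries. They comprised 37 subunit genes and 8 Ndufaf assembly factor genes. The subunit genes were divided by role into 7 core subunits, 9 accessory subunits of the matrix arm, 19 accessory subunits of the membrane arm, the acyl carrier Ndufab1, and Ndufa4, which carries a complex I name but is now assigned to complex IV. All 45 were among the 21821 genes tested. The membrane-arm subunit Ndufb1 had no entry under that symbol, so it is missing from the set. A symbol Ndufb1-ps, which the pattern does not take, had 1813 to 3718 reads per library.

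The groups had 3 libraries each. In the high-dose and low-dose groups, mice received MPTP intraperitoneally at 20 mg/kg/day for 1 week and then, for 4 weeks, a compound that inhibits BTK. This kinase signals in B cells and microglia. The labels give its dose as 2 µg/kg/day and as 50 pM in the high-dose group, and as 1 µg/kg/day and as 25 pM in the low-dose group. The levodopa group received the same MPTP course followed by the dopamine precursor levodopa at 2 mg/kg/day for 4 weeks, by a route labelled both oral and intraperitoneal. The MPTP group received the toxin alone, and the control group a normal diet. The protocol gives 8 mice per group and a sampling time of 6 weeks. Age, sex and strain are not given in the labels used here, and no brain region is named.

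Complex I, NADH:ubiquinone oxidoreductase, is the first enzyme of the mitochondrial respiratory chain. It passes electrons from NADH to ubiquinone and pumps protons across the inner membrane. Its core subunits carry the flavin, the iron-sulphur clusters and the proton channels, and they come in part from nuclear genes and in part from the mitochondrial ND genes. Accessory subunits surround this core and stabilise it, while assembly factors help to build or modify the enzyme and are not part of the finished complex. MPTP is converted in the brain to MPP+, an inhibitor of complex I that accumulates in dopamine neurons.

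Library totals were 58149722 to 61998459 reads after inhibitor treatment (6 libraries) and 63314658 to 68257095 reads otherwise (9 libraries). The 8 neuronal markers, among them the synaptic vesicle gene Snap25, summed to between 4470 and 6313 CPM (read counts scaled to the library total, with TMM factors) over the 15 libraries, and the 4 liver markers to at most 1.13 CPM. Markers of brain regions and cell types were not balanced between groups. The 10 cortex and hippocampus markers summed to 447 to 828 CPM in high-dose and 796 to 905 CPM in low-dose libraries, against 250 to 350 CPM in MPTP libraries. The 8 striatal markers followed the same order, with 463 to 1224, 1145 to 1467 and 161 to 211 CPM in high-dose, low-dose and MPTP libraries. The 8 thalamus and midbrain markers ran the other way, at 274 to 583 CPM in high-dose and 164 to 323 CPM in low-dose libraries, against 795 to 1070 CPM in MPTP libraries. The 10 endothelial and pericyte markers summed to 196 to 236 CPM in high-dose and 206 to 289 CPM in low-dose libraries, against 329 to 543 CPM in MPTP libraries. The 8 choroid plexus markers summed to 300 to 1480 CPM in high-dose and 906 to 1416 CPM in low-dose libraries, against 29.5 to 38.4 CPM in MPTP and 98.7 to 954 CPM in control libraries, and 2 of them rose against MPTP at the high dose and 4 at the low dose. The 9 dopamine neuron markers summed to 180 to 415 CPM in high-dose and 90.1 to 299 CPM in low-dose libraries, against 489 to 730 CPM in MPTP libraries, and 2 of them fell at the low dose. Of 8 astrocyte markers 3 fell at the low dose, although their sums overlapped (3520 to 4010 CPM in low-dose and 3439 to 4012 CPM in MPTP libraries). Endothelial and pericyte markers fell in 6 of 10 cases at each dose. Cortex and hippocampus markers rose in 2 of 10 cases at the high dose and 5 at the low dose, and 3 of 8 striatal markers rose at the low dose. These calls are at an adjusted p below 0.05 by edgeR. By that limit 4.78% of all genes rose and 3.75% fell at the low dose, and 1.97% passed in either direction at the high dose. Cerebellar markers reached 6799 CPM in levodopa 2 and 8264 CPM in control 2. The part of tissue make-up in the complex I differences below was not tested. In whole-tissue RNA, fewer cells of a type and less RNA per cell cannot be told apart.

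The complex I genes together took between 0.259% and 0.358% of all reads. Divided by transcript length and averaged over the 15 libraries, Ndufa4 had the highest level at 265 CPM per kilobase. The membrane-arm subunit genes Ndufb9, Ndufb8 and Ndufb10 followed at 170, 167 and 148 CPM per kilobase. The assembly factors lay at the other end of the range. Ndufaf6 and Ndufaf8 had 7.16 and 8.004 CPM per kilobase, and of the 8 assembly factors only Ndufaf5, at 36.6 CPM per kilobase, ranked above place 38 of 45. The only subunit gene in the last 8 places was Ndufc1, a small membrane-arm subunit, at 22.5 CPM per kilobase. Exons of complex I genes overlap those of a gene on the opposite strand in 15 pairs, among them Ndufs3 with Kbtbd4 and Ndufaf3 with Impdh2. The largest overlap of a pair ran from 4 nt (Ndufa3 with Tfpt) to 530 nt (Ndufb5 with Mrpl47). Whether the counting told reads of such pairs apart is not known, since its strand setting is not given.

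High-dose inhibitor after MPTP was set against MPTP alone first. The complex I genes were broadly and modestly higher in the high-dose libraries, with a median log2 fold change of 0.34 over the 45 genes and no single gene past the adjusted threshold. In 34 of the 45 genes, all 3 high-dose libraries lay above all 3 MPTP libraries, against 20.4% of all genes tested. In 29 of 45 genes the unadjusted p of edgeR's quasi-likelihood test was below 0.05 with the high-dose group higher, against 10.4% of all genes, and in 0 of 45 with it lower, against 8.18%. The count of 29 depended on single libraries and was 14 without MPTP 2, 17 without high-dose 2 and 18 without high-dose 3, when 7.03%, 6.6% and 8.73% of all genes were higher. Only 1 gene had every high-dose library below every MPTP library, against 19.4% of all genes. With Benjamini-Hochberg adjustment over 21821 genes, 0 of 45 passed the threshold of 0.05, which 1.97% of all genes did. DESeq2 called 10 of the 45 and 1742 of all 21821 genes. Fitted to only these 6 libraries, edgeR called 29 of the 45 and 3560 of all 20384 genes. Calls thus rose among all genes too in both settings, and the share called was larger among the 45.

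**Figure D1:**
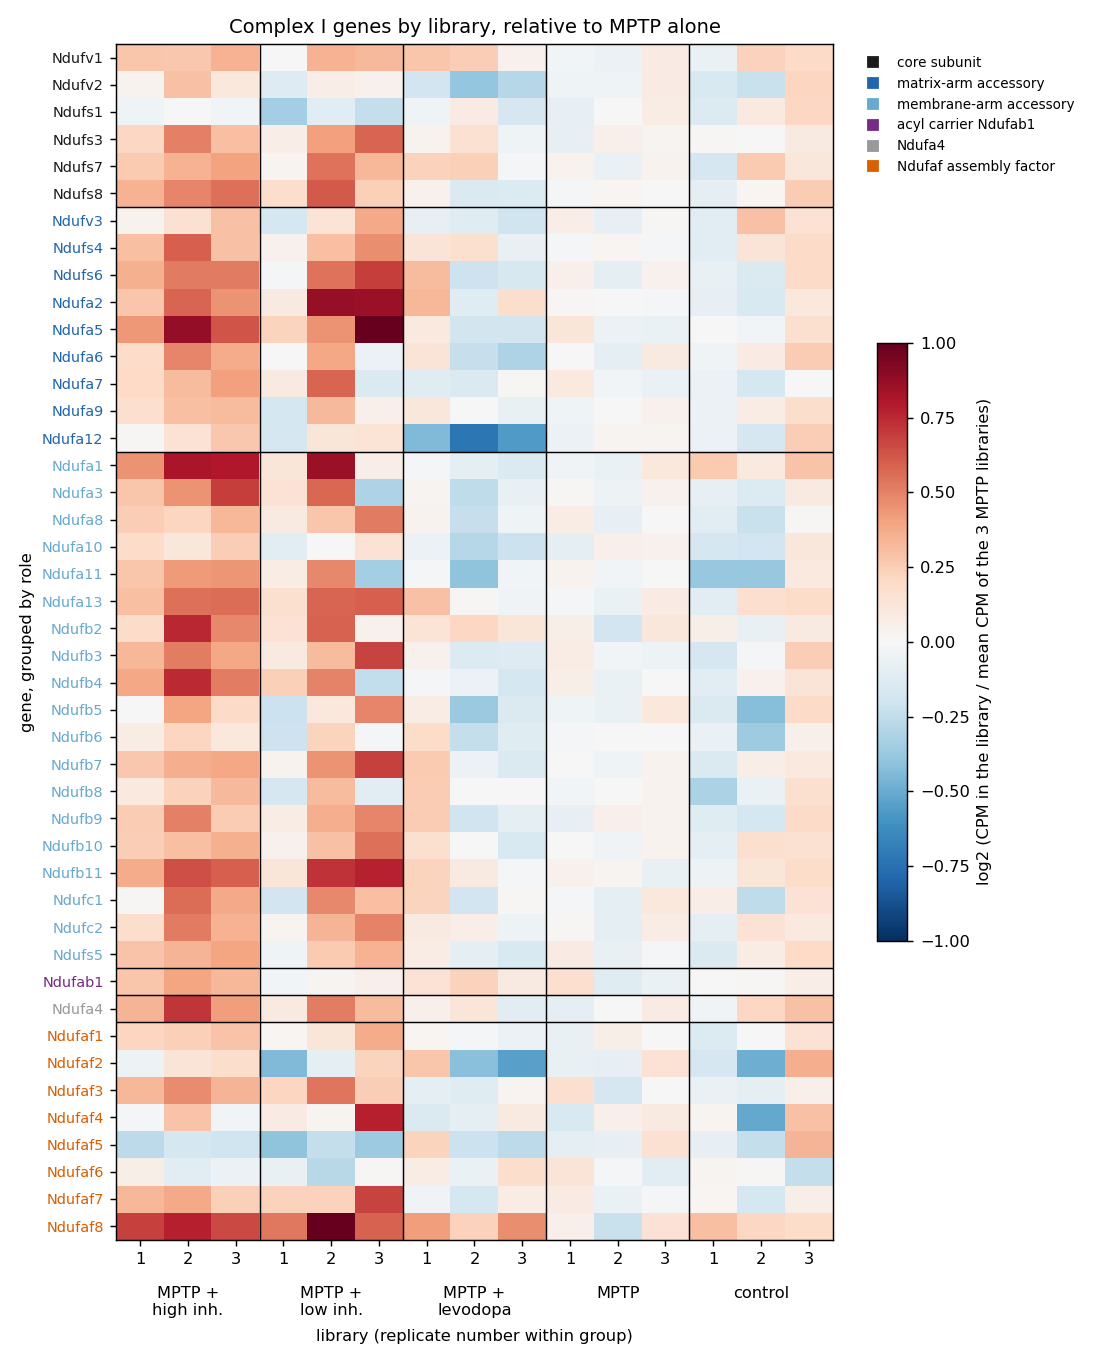
Level of the complex I genes reported here (rows, grouped and coloured by role) in each library (columns, 3 per group), as log2 of the CPM over the mean CPM of the 3 MPTP libraries. Red cells fill most of the high-dose columns, low-dose 1 is pale, low-dose 3 mixes dark red and blue, and Ndufa12 is blue across the 3 levodopa columns.

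The genes with the smallest p in this comparison came from different roles. Ndufaf8, the partner of the assembly factor Ndufaf5, had 7.40, 7.88 and 7.27 CPM in the high-dose libraries, against 4.77, 3.94 and 5.08 CPM in the MPTP libraries. Ndufab1, the mitochondrial acyl carrier protein, had 71.5, 77.6 and 74.0 CPM in high-dose libraries, against 66.1, 54.3 and 56.4 CPM in MPTP libraries. Ndufa1, a small membrane-arm subunit needed for assembly, had 36.3, 46.8 and 46.3 CPM in high-dose libraries, against 25.9, 25.4 and 28.6 CPM in MPTP libraries. In each of these genes every high-dose library was above every MPTP library. The core subunit Ndufs8, which holds a pair of iron-sulphur clusters, also showed separate groups, with 65.5, 72.2 and 75.5 CPM against 51.0, 52.3 and 51.3 CPM in MPTP libraries. The log2 fold changes were 0.71 for Ndufaf8 (SE 0.17, adjusted p = 0.0527), 0.34 for Ndufab1 (SE 0.09, adjusted p = 0.0718), 0.70 for Ndufa1 (SE 0.18, adjusted p = 0.0727) and 0.46 for Ndufs8 (SE 0.13, adjusted p = 0.0794). Keeping only genes with 5 CPM in 3 libraries brought Ndufaf8 and Ndufab1 past the threshold, with adjusted p of 0.0400 and 0.0480 by edgeR. With that filter 558 of all 12948 genes passed, a share like that among the complex I genes.

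Among the core subunits, Ndufv1, Ndufs3, Ndufs7 and Ndufs8 had non-overlapping groups, while Ndufv2 and Ndufs1 overlapped. Ndufv1, which binds the flavin and NADH, averaged 149 ± 4.54 CPM in high-dose libraries and 121 ± 6.26 CPM in MPTP libraries (SD, n = 3 each). Its log2 fold change was 0.30 (SE 0.12, adjusted p = 0.185). Ndufs1, the largest nuclear-encoded core subunit, had 154, 159.8 and 157 CPM in high-dose libraries, against 151, 159 and 168 CPM in MPTP libraries. Its groups lay on top of each other, with a log2 fold change of -0.02 (SE 0.11, adjusted p = 0.944). Of the accessory subunits, 7 of 9 in the matrix arm and 17 of 19 in the membrane arm had every high-dose library above every MPTP library. The matrix-arm and membrane-arm accessory subunits had nearly equal median log2 fold changes of 0.35 and 0.34, and the core subunits 0.30. In the membrane arm, Ndufb4 had 52.3, 67.1 and 56.9 CPM in high-dose libraries, against 41.7, 38.1 and 40.1 CPM in MPTP libraries. Reads of its near-identical copies Ndufb4b and Ndufb4c are listed under their own symbols, so the value of Ndufb4 is uncertain. Ndufa4, the complex IV protein, had 177, 229 and 186 CPM in high-dose libraries, against 131, 139.8 and 148 CPM in MPTP libraries, and here too the groups were separate (log2 fold change 0.50, SE 0.14, adjusted p = 0.0806).

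The assembly factors did not move as a body. Ndufaf1 of the intermediate assembly complex, Ndufaf3 of the ubiquinone module, Ndufaf7, a methyltransferase of the matrix, and Ndufaf8 were above MPTP in every high-dose library. Ndufaf2, Ndufaf4 and Ndufaf6 overlapped with MPTP. Ndufaf5, a hydroxylase acting on Ndufs7, was the exception in the other direction among the 45 genes. Ndufaf5 had 38.5, 40.7 and 40.0 CPM in high-dose libraries, against 43.3, 43.5 and 51.2 CPM in MPTP libraries. Every high-dose library was thus below every MPTP library, although the log2 fold change of -0.21 did not pass (SE 0.16, adjusted p = 0.532). The median log2 fold change of the subunits was 0.34 and that of the assembly factors 0.17, a difference of 0.17, while the median of all genes tested was -0.01. Leaving out each library in turn gave differences between 0.11 and 0.22. Set against genes of the same transcript length, as described below, the order turned round, with medians of 0.04 for the subunits and 0.07 for the assembly factors.

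Low-dose inhibitor after MPTP gave 3 complex I genes that rose and 0 that fell against MPTP alone, at a background of 8.53% of all genes passing. Of all genes, 4.78% passed as higher and 3.75% as lower. The 3 were the assembly factor Ndufaf8, the membrane-arm subunit Ndufb11 and the matrix-arm subunit Ndufa2. The median log2 fold change of the 45 genes was 0.23. In 16 genes every low-dose library was above every MPTP library, and in 2 genes below, against 20.9% and 19.8% of all genes tested. At an unadjusted p below 0.05, 17 genes were higher and 0 lower, against 13.7% and 12.1% of all genes. The count of 17 was 10 without MPTP 2 and 11 without low-dose 2, when 9.99% and 13% of all genes were higher. DESeq2 called 7 of the 45 in this comparison and 3412 of all 21821 genes, a like share.

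Ndufaf8, on chromosome 11 at 120098928 to 120100705 of GRCm38 on the plus strand, had 6.61, 9.82 and 6.92 CPM in low-dose libraries, against 4.77, 3.94 and 5.08 CPM in MPTP libraries. Ndufb11, on chromosome X at 20615326 to 20617619 on the minus strand, had 60.8, 92.0 and 94.99 CPM in low-dose libraries, against 57.6, 56.8 and 53.0 CPM in MPTP libraries. Ndufa2, on chromosome 18 at 36742332 to 36744557 on the minus strand, had 32.2, 55.4 and 54.8 CPM in low-dose libraries, against 30.4, 30.3 and 30.0 CPM in MPTP libraries. Low-dose 1 exceeded the MPTP libraries only narrowly in Ndufb11 and Ndufa2, and the other low-dose libraries were far above. The log2 fold changes were 0.76 for Ndufaf8 (SE 0.17, adjusted p = 0.0202), 0.57 for Ndufb11 (SE 0.15, adjusted p = 0.0400) and 0.65 for Ndufa2 (SE 0.19, adjusted p = 0.0496) by edgeR. Exons of Ndufb11 overlap those of Rbm10 on the opposite strand by 117 nt, and exons of Ndufa2 those of Tmco6 by 66 nt, and the strand setting of the counting is not given.

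These 3 calls were narrow. Leaving out MPTP 1, MPTP 2, MPTP 3 or low-dose 2 left 0 complex I genes past the threshold, and the adjusted p of Ndufaf8 was then 0.0515, 0.101, 0.0548 and 0.0516. Without low-dose 3 only Ndufaf8 passed (adjusted p = 0.0380). Without low-dose 1, 8 genes passed, namely the 3 above together with Ndufa13, Ndufs3, Ndufa5, Ndufb7 and Ndufs6. In that fit 1074 of all 22457 genes passed. Without a filter on low counts only Ndufaf8 passed, and with upper-quartile normalization Ndufa2 did not (adjusted p = 0.0665).

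**Figure D2:**
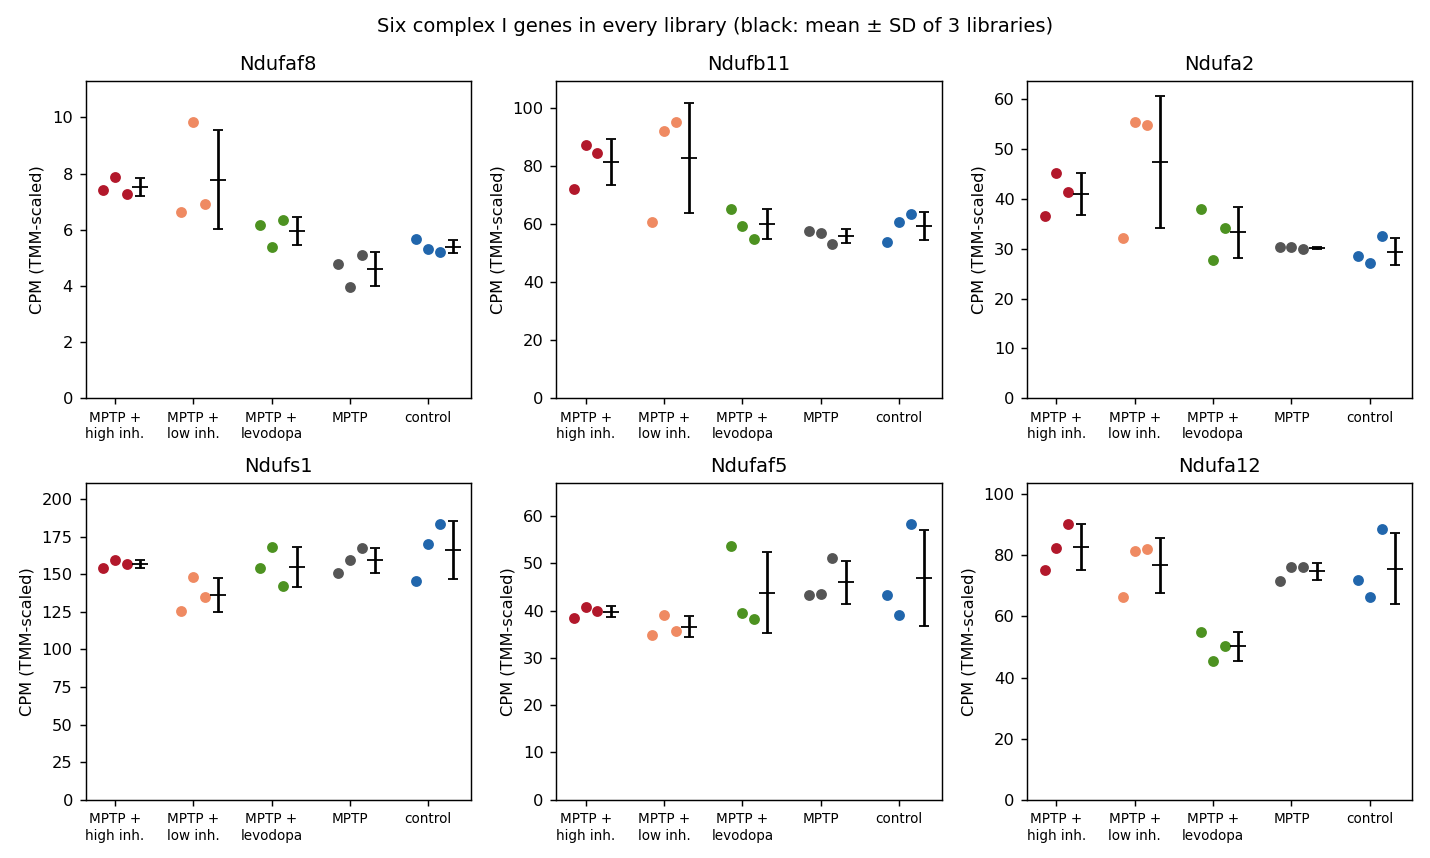
CPM of 6 complex I genes in each library (points), with the mean and SD of each group of 3 in black; all vertical axes start at 0. Ndufaf8 is lowest in MPTP libraries, Ndufb11 and Ndufa2 are high in low-dose 2 and 3 but not in low-dose 1, Ndufaf5 is low in both inhibitor groups, and Ndufa12 is lowest in the levodopa libraries.

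Ndufs1 and Ndufaf5 were the 2 genes below MPTP in every low-dose library. Ndufs1, on chromosome 1 at 63143596 to 63176833 on the minus strand, had 126, 148 and 135 CPM in low-dose libraries, against 151, 159 and 168 CPM in MPTP libraries (log2 fold change -0.23, SE 0.11, adjusted p = 0.206). Ndufaf5, on chromosome 2 at 140170649 to 140203689 on the plus strand, had 34.9, 39.1 and 35.8 CPM in low-dose libraries, against 43.3, 43.5 and 51.2 CPM in MPTP libraries (log2 fold change -0.33, SE 0.16, adjusted p = 0.212). Neither passed the threshold. The protein products of Ndufaf5 and Ndufaf8 act together. Their messages lay on opposite sides of MPTP at both doses. Over the low-dose comparison the assembly factors had a median log2 fold change of 0.26 and the subunits 0.23, a difference of -0.02. Both medians leaned on single libraries. Without low-dose 3 the assembly factors had 0.07 and the subunits 0.21, a difference of 0.14 with the subunits higher, and without low-dose 1 the subunits had 0.36. The difference was also above 0 without MPTP 1, MPTP 3 or low-dose 1 (0.06, 0.02 and 0.02).

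The low-dose libraries were not alike. The summed level of the 37 subunit genes was 2581 CPM in low-dose 1, 3291 CPM in low-dose 2 and 3233 CPM in low-dose 3, while high-dose libraries had 3022 to 3436 CPM and MPTP libraries 2577 to 2708 CPM. Low-dose 1 thus lay within the MPTP range. Levodopa libraries had 2425 to 2796 CPM and control libraries 2452 to 2967 CPM. The 8 assembly factor genes summed to 189.7 to 207 CPM in high-dose, 177 to 229 CPM in low-dose, 162 to 188 CPM in levodopa, 175 to 189 CPM in MPTP and 153 to 209 CPM in control libraries.

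Low-dose 3 had a mixed profile within the complex. Measured as log2 level minus the mean of the other 2 libraries of its group, the 45 genes had an SD of 0.35 there and of 0.09 to 0.26 in the other 14 libraries. The matrix-arm subunit Ndufa5 was 0.85 above its group partners on this scale, with 121 CPM in low-dose 3 and 62.4 and 72.6 CPM in low-dose 1 and 2. The assembly factor Ndufaf4 had 66.7 CPM there, against 41.3 and 39.8 CPM in low-dose 1 and 2. The membrane-arm subunit Ndufa3 was 0.67 below its partners, at 29.5 CPM in low-dose 3 and 40.4 and 54.5 CPM in low-dose 1 and 2. Ndufa11 was likewise low, with 42.7 CPM in low-dose 3 and 56.9 and 75.5 CPM in low-dose 1 and 2. Ndufb4 had 33.8 CPM, below all 14 other libraries, and its copies Ndufb4c and Ndufb4b had 115 and 114 reads there, against 288 and 242 reads in low-dose 2. Over 12402 genes the same measure had an SD of 0.33 in low-dose 3 and 0.35 in low-dose 2, so the library as a whole was not more dispersed than low-dose 2.

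**Figure D3:**
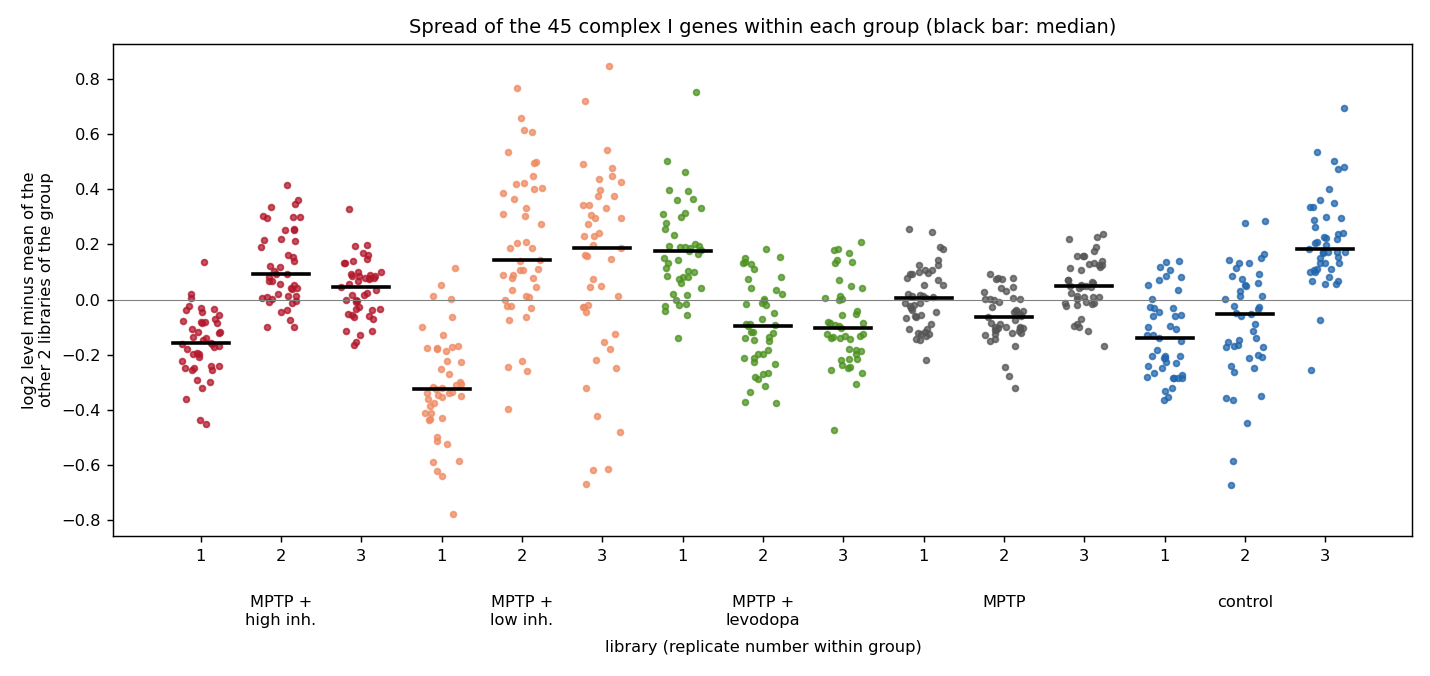
For each library, the log2 level of each of the 45 complex I genes minus the mean of the other 2 libraries of its group (points; the sideways scatter only separates them), with the median as a black bar. The points of low-dose 3 reach from -0.67 to 0.85, those of MPTP 2 stay within -0.32 and 0.09, and low-dose 1 has the lowest median, -0.32.

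The size of the change went with the length of the transcript. The subunit transcripts had a median length of 861 nt and the assembly factor transcripts of 1308 nt, while the 11796 protein-coding genes with at least 5 CPM had a median of 3060 nt. Among those genes without the complex I genes, the median log2 fold change of high-dose over MPTP was 0.45 for transcripts up to 600 nt, 0.35 for 601 to 800 nt, 0.32 for 801 to 1000 nt and 0.21 for 1001 to 1500 nt. It was 0.08 for 1501 to 2500 nt, -0.01 for 2501 to 4000 nt and -0.15 for longer ones. Classes of shorter transcripts thus had higher medians. The complex I genes in the same classes had medians of 0.44, 0.34, 0.54, 0.26, 0.18 and 0.03, with none in the longest class. Over the 45 genes the median difference from the length class was 0.04, and 27 of 45 lay above it. In the low-dose comparison the median difference was 0.00, and 22 of 45 lay above their class. The median difference of the subunits was 0.04 at the high dose and 0.00 at the low dose, and that of the assembly factors 0.07 at both. For high-dose against control libraries it was 0.00 for the subunits and 0.08 for the assembly factors. For low-dose against control libraries it was -0.06 for the subunits, of which 15 of 37 lay above their class, and 0.08 for the assembly factors. Across genes, Spearman's rho between transcript length and log2 fold change was -0.48 over the complex I genes and -0.41 over all 11796 genes for high-dose against MPTP, and -0.23 and -0.31 for low-dose against MPTP; genes are not independent replicates, and all share the same 6 libraries. The part of transcript length in the complex I differences was not tested further.

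Set against their length classes, the genes farthest out were assembly factors. Ndufaf8 was 0.36 above its class in the high-dose and 0.47 above it in the low-dose comparison. Ndufaf5 was 0.42 and 0.52 below its class.

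**Figure D4:**
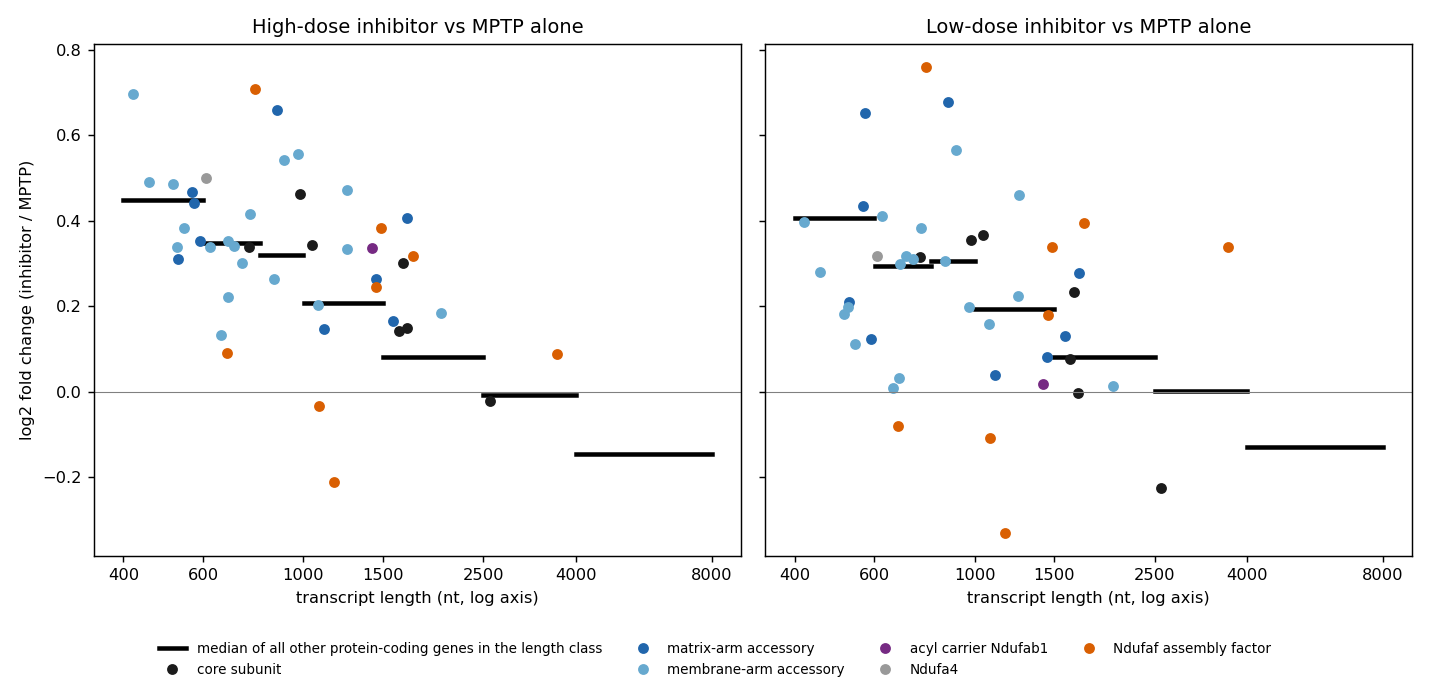
Log2 fold change of each complex I gene (points, coloured by role) against transcript length on a log axis, for high-dose (left) and low-dose inhibitor (right) against MPTP alone, with black bars at the median of all other protein-coding genes of each length class. The first and last classes are cut at the axis ends. The bars step down with length at the high dose. At the low dose they do so too, except that the bar for 801 to 1000 nt lies slightly above that for 601 to 800 nt. The points scatter around the bars, and Ndufaf8 and Ndufaf5 lie farthest above and below.

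Levodopa after MPTP left the complex I genes close to MPTP alone, with a median log2 fold change of -0.04. None of the 45 genes passed by edgeR or by DESeq2, at a background of 0% of all genes passing by edgeR, and 3 had an unadjusted p below 0.05. One of them was higher and 2 were lower, while 1.82% and 1.14% of all genes were. In 2 genes every levodopa library was above every MPTP library and in 2 below, against 4.93% and 4.65% of all genes. Ndufa12 stood out in the values by library. This matrix-arm subunit, on chromosome 10 at 94198720 to 94221443 on the plus strand, had 55.0, 45.4 and 50.4 CPM in levodopa libraries, against 71.7, 76.3 and 76.2 CPM in MPTP libraries. All 3 levodopa libraries lay below all 12 other libraries, which had 66.4 to 90.2 CPM. The log2 fold change was -0.57 (SE 0.13), and the adjusted p was 0.954 by edgeR and 0.125 by DESeq2. Without levodopa 2, which is rich in cerebellar markers, it was -0.51.

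Ndufaf2, the assembly factor related in sequence to Ndufa12, had 19.9, 12.4 and 11.3 CPM in levodopa libraries, against 15.6, 15.6 and 18.2 CPM in MPTP libraries. Levodopa 1 was above and the others below all MPTP libraries. The core subunit Ndufv2 had 107, 93.4 and 100.3 CPM in levodopa libraries, against 118, 119 and 129 CPM in MPTP libraries (log2 fold change -0.29, SE 0.12, adjusted p = 0.954). Ndufaf8 had 6.16, 5.39 and 6.33 CPM in levodopa libraries, each above the 4.77, 3.94 and 5.08 CPM of the MPTP libraries (log2 fold change 0.37, SE 0.17, adjusted p = 0.954). Ndufab1 overlapped, with 65.1, 69.0 and 62.8 CPM in levodopa and 66.1, 54.3 and 56.4 CPM in MPTP libraries. In the levodopa comparison the subunits and the assembly factors had median log2 fold changes of 0.00 and -0.04.

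MPTP alone was set against control to see whether the toxin left a mark on these genes at the time of sampling. None of the 45 genes passed by edgeR or DESeq2, 0% of all genes passed by edgeR, and 0 of the 45 had an unadjusted p below 0.05 in either direction, against 2.5% of all genes higher and 4.12% lower. The largest change in size was that of Ndufaf8, which had 4.77, 3.94 and 5.08 CPM in MPTP libraries, against 5.67, 5.304 and 5.21 CPM in control libraries. It was the only gene of the 45 with separate groups, while 6.2% of all genes had every MPTP library below every control library and 6.83% above (log2 fold change -0.23, SE 0.17, adjusted p = 0.720). The MPTP libraries were thus the lowest of all groups for Ndufaf8, and each comparison with MPTP shares those 3 libraries. Ndufa1 had 25.9, 25.4 and 28.6 CPM in MPTP libraries, against 31.9, 28.5 and 32.4 CPM in control libraries. Ndufa4 had 131, 139.8 and 148 CPM in MPTP libraries, against 136, 161 and 171 CPM in control libraries. In both Ndufa1 and Ndufa4 the groups overlapped, with log2 fold changes of -0.22 and -0.16. The subunits and the assembly factors had median log2 fold changes of -0.03 and 0.03.

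Against untreated controls, none of the 45 genes passed by edgeR at either dose. For the high dose, 0.376% of all genes passed. DESeq2 called 3 of the 45 and 1477 of all 21821 genes, a like share. At an unadjusted p below 0.05, 26 of the 45 were higher and 0 lower, against 9.22% and 10.8% of all genes. The count of 26 was 13 without control 1, 17 without control 2, 14 without high-dose 2 and 17 without high-dose 3. Of all genes, 10.8%, 6.4%, 5.73% and 7.75% were higher in those fits. In 30 genes every high-dose library was above every control library and in 0 below, against 14.4% and 13% of all genes. Ndufaf3 had 23.0, 25.4 and 23.1 CPM in high-dose libraries, against 17.4, 17.1 and 18.9 CPM in control libraries (log2 fold change 0.42, SE 0.12, adjusted p = 0.111). Ndufab1 followed with a log2 fold change of 0.31 and Ndufb4 with 0.53 (SE 0.09 and 0.16, adjusted p = 0.112 and 0.121), and Ndufa8 had 0.36 (SE 0.12, adjusted p = 0.136). In all of these the groups were separate.

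For the low dose against controls, 5.4% of all genes passed, and DESeq2 called 7 of the 45 and 2803 of all 21821 genes. At an unadjusted p below 0.05, 14 genes were higher and 2 lower, against 11.8% and 12.6% of all genes. The count of 14 was 7 without control 1, 9 without control 2 and 8 without low-dose 2. Of all genes, 12.9%, 9.22% and 10.8% were higher in those fits. In 5 genes every low-dose library was above every control library and in 0 below, against 14% and 12.2% of all genes. Ndufa2 was closest to the threshold, with 32.2, 55.4 and 54.8 CPM in low-dose libraries, against 28.6, 27.2 and 32.5 CPM in control libraries. Low-dose 1 fell just under control 3, so the groups overlapped (log2 fold change 0.69, SE 0.19, adjusted p = 0.0513). Ndufa8, Ndufaf7 and Ndufaf3 had separate groups and log2 fold changes of 0.40, 0.42 and 0.38 (SE 0.12, 0.13 and 0.12, adjusted p = 0.0610, 0.0767 and 0.0824). Without low-dose 1, 4 genes passed, namely Ndufa2, Ndufb11, Ndufa8 and Ndufb7, while 487 of all 22457 genes did.

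Between the doses, high against low, none of the 45 genes passed by edgeR or DESeq2, and 0% of all genes passed by edgeR. At an unadjusted p below 0.05, 2 genes were higher in the high-dose group and 0 lower, against 1.06% and 1.16% of all genes. Without low-dose 2 the count of higher genes was 12, against 3.07% of all genes. In 2 genes, Ndufs1 and Ndufab1, every high-dose library was above every low-dose library and in 0 below, against 5.23% and 5.34% of all genes. Ndufab1 passed that unadjusted limit, with 71.5, 77.6 and 74.0 CPM in high-dose libraries, against 58.0, 60.0 and 61.0 CPM in low-dose libraries (log2 fold change 0.32, SE 0.09, adjusted p = 1). The groups did not overlap for Ndufab1, and the low-dose libraries fell within the MPTP range of 54.3 to 66.1 CPM. The other was Ndufb4, in which low-dose 3 was the low library and the groups overlapped. The subunits had a median log2 fold change of 0.11 and the assembly factors of 0.05, and leaving out each library gave 0.0144 to 0.165 and -0.0112 to 0.106. Since no gene passed, the data do not show that the doses act alike.

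The other genes of the pathway mostly stayed under the threshold. Of the 7 complex I genes of the mitochondrial genome, 0 passed in any of the 7 comparisons. Their summed level was 22122 to 31114 CPM in high-dose, 19625 to 28672 CPM in low-dose, 22919 to 24017 CPM in levodopa, 24270 to 28812 CPM in MPTP and 16861 to 27442 CPM in control libraries, so the groups overlapped. ND3 lay apart above MPTP and ND4L below it at the high dose. That is 1 of the 7 genes each way, against 20.4% of all genes above and 19.4% below. ND3 averaged 605 ± 182 CPM in high-dose libraries and 348 ± 32.5 CPM in MPTP libraries, and ND4L 623 ± 39.4 CPM in high-dose libraries and 737 ± 51.1 CPM in MPTP libraries (SD, n = 3 each, adjusted p = 0.142 and 0.368 by edgeR).

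Of 11 assembly factors with other names that were measured, 1 rose in low-dose against MPTP libraries and 0 passed against MPTP at the high dose. That share of the list was close to the 8.53% of all genes that passed in the low-dose comparison. The gene was Dmac1, a membrane-arm assembly factor, which had 16.6, 17.8 and 16.7 CPM in low-dose libraries, against 12.9, 12.8 and 12.7 CPM in MPTP libraries (log2 fold change 0.42, SE 0.11, adjusted p = 0.0340). The high-dose libraries had 16.5, 18.1 and 15.1 CPM of Dmac1 (adjusted p = 0.0885). Acad9 and Ecsit, partners of Ndufaf1, had log2 fold changes of -0.05 and 0.21 in high-dose against MPTP libraries. Of 9 genes for peroxide removal and related redox functions, Txn2, the mitochondrial thioredoxin, rose in low-dose libraries, with 86.7, 94.0 and 100.6 CPM against 65.9, 66.7 and 65.9 CPM in MPTP libraries (log2 fold change 0.50, SE 0.14, adjusted p = 0.0419). It was the 1 gene of the 9 to pass there, a share close to the 8.53% of all genes.

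Of 13 regulators of mitochondrial biogenesis, 0 passed against MPTP at either dose, and 1 passed against control, at the low dose. At an unadjusted p below 0.05 by edgeR, 6 of the 13 were lower in high-dose than in control libraries, against 10.8% of all genes. In low-dose against control libraries 3 were lower, against 12.6%. At both doses 0 were higher, against 9.22% of all genes at the high dose and 11.8% at the low dose. Ppargc1a, the PGC-1α coactivator of respiratory genes, had 45.2, 50.6 and 46.0 CPM in high-dose and 41.5, 46.4 and 51.7 CPM in low-dose libraries, against 50.3, 82.3 and 81.3 CPM in MPTP and 64.9, 82.8 and 78.9 CPM in control libraries. It fell in low-dose against control libraries (log2 fold change -0.70, SE 0.18, adjusted p = 0.0467), where every low-dose library was below every control library and 5.4% of all genes passed. Against MPTP the log2 fold changes were -0.59 at the high dose and -0.62 at the low dose (adjusted p = 0.108 and 0.0553). The median of the complex I genes and Ppargc1a lay on opposite sides of MPTP in both inhibitor groups. Nrf1, another regulator of respiratory genes, had a log2 fold change of -0.36 in high-dose against MPTP libraries (adjusted p = 0.289).

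The promoters of the complex I genes were searched for short motifs bound by factors known for respiratory genes. A promoter here is the 250 bases before and 50 bases after the annotated start, from RefSeq on GRCm38.p6, and 40 of the 45 genes had one. The 2 shown belong to Ndufaf8 and Ndufb11, which rose in low-dose libraries. Ndufaf8 lies at chr11:120098684-120098983 on the plus strand and Ndufb11 at chrX:20617570-20617869 on the minus strand. Capitals mark CGGAAG on either strand (the core of ETS factor sites, CTTCCG when read on the other strand) and AAGATGG (part of the YY1 site).
Ndufaf8: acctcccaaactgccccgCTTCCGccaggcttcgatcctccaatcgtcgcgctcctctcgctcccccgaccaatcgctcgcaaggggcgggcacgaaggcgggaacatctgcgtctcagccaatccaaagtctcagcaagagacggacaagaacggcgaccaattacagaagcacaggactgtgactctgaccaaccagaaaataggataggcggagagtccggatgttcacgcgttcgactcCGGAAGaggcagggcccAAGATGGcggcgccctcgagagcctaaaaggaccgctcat
Ndufb11: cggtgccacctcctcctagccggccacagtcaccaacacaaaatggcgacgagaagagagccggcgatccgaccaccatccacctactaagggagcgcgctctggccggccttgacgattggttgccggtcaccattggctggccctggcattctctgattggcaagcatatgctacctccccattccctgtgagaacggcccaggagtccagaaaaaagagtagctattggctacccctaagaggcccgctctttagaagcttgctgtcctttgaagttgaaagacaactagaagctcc
The Ndufaf8 promoter held CGGAAG on both strands and 1 AAGATGG just after the start, and the Ndufb11 promoter held none of the motifs searched. The motif TGCGCA, the core of the NRF1 site and its own reverse complement, was found in 11 of 40 complex I promoters (27.5%), against 8.06% of all 27025 promoters. CGGAAG on either strand was found in 6 of the 7 assembly factor promoters, the exception being Ndufaf2, and in 7 of 33 subunit promoters (21.2%), against 17.2% of all promoters. AAGATGG on either strand was found in 8 of 40 complex I promoters, against 6.48% of all promoters. The full set holds the first listed start of each symbol and was not matched to the complex I genes by level or base composition. Whether the higher shares are particular to complex I genes was not tested. The motifs share no overlapping position in the printed sequences. A match describes these letters only, and genes with a match included both Ndufaf8 and Ndufaf5, which lay on opposite sides of MPTP.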

How the data were processed

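Messenger RNA of mouse brain was sequenced from TruSeq stranded libraries, per the labels' protocols. The authors deposited whole-number read counts per gene symbol for 15 libraries. The submitters' processing notes name the genome build GRCm38/mm10 and the tools StringTie 2.1.3b, HISAT2 2.1.0, Trimmomatic and bcl2fastq 2.20.0. Which annotation and strand setting were used, and how shared reads were handled, is not given there. The 6 inhibitor files have another number of blank end columns than the 9 others, so a difference in handling and the treatment cannot be told apart.

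Counts were tested with edgeR 4.0.16 (R 4.3.3): TMM factors, the filterByExpr filter by group, a single quasi-likelihood fit with the 5 groups and no covariate, and a Benjamini-Hochberg threshold of 0.05 over 21821 genes. The SE of a log2 fold change is its size over the square root of F. Levels are TMM-scaled CPM. The script was tested on simulated data. The labels do not say that libraries are separate mice, so the p-values rest on a spread between samples that may be technical. Each complex I gene had 269 to 14080 reads per library.

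The members, gene lists and tests were chosen with earlier results of these data known. Named genes were those passing, otherwise the 4 with the smallest p per comparison, plus the core subunits, assembly factors, Ndufa4, Ndufab1 and the genes with the largest and smallest fold change. A selection is printed, and a result is not reported here. Ndufa3, Ndufa11, Ndufa5 and Ndufb4 in low-dose 3 were named after their values were seen. Gene positions and exon overlaps come from the full GENCODE M21 annotation. Transcript lengths come from its basic set, in which 18880 of the tested symbols were found. The transcript taken had the best rank as principal transcript (APPRIS), then the best support, then the shortest length. Transcript lengths replaced the planned protein lengths, and the minimum of 5 CPM there was chosen after seeing the data. Alternatives tried were DESeq2 1.42.0, upper-quartile and RLE normalization, no filter, 5 CPM in 3 libraries, fits of the 2 groups compared, the replicate number as a block, each library left out, and control 2 and levodopa 2 left out together.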

Additional observations from a re-analysis of the deposited data

How the results depend on the processing

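The direction of the difference between subunits and assembly factors in the high-dose comparison with MPTP was kept under every normalization, filter, tool, fit and left-out library run. Set against transcript-length classes, an alternative added after the data were seen, it turned round, with medians of 0.0431 for the subunits and 0.0665 for the assembly factors. No complex I gene passed in the comparisons of MPTP with control, levodopa with MPTP or the 2 doses under any of them. Differences of subunits and assembly factors near 0 changed sign in other comparisons when 1 library was left out, and these are given below.

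Against MPTP at the low dose, 1861 genes in all and 3 complex I genes passed. Without a filter these were 1224 and 1, with DESeq2 3412 and 7, and with only the 2 groups fitted 4253 genes in all passed. Leaving out each library gave 421 to 1300 genes in all and 0 to 8 complex I genes, and a median difference of subunits and assembly factors between -0.0529 and 0.138. Against MPTP at the high dose, 429 genes in all and 0 complex I genes passed. Without a filter 214 passed in all, with DESeq2 1742 and 10, and with only the 2 groups fitted 3560 and 29. The filter of 5 CPM gave 558 genes in all and 2 complex I genes. Leaving out each library gave 18 to 138 genes in all.

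Against control at the low dose, 1178 genes passed in all, 571 without a filter, 11 with only the 2 groups fitted and 2803 with DESeq2, which called 7 complex I genes. The filter of 5 CPM called 1352 genes in all and 2 complex I genes. Leaving out each library gave 78 to 1444 genes in all and 0 to 4 complex I genes, and leaving out control 2 and levodopa 2 together gave 1859 in all. Against control at the high dose, 82 genes passed in all, 35 without a filter, 256 with the filter of 5 CPM, 3 with only the 2 groups fitted, 165 without control 2 and levodopa 2, and 1477 with DESeq2, which called 3 complex I genes. Leaving out each library gave 15 to 65 genes in all. DESeq2 also called 51 genes for MPTP against control, 2 for levodopa against MPTP and 2 between doses, and leaving out levodopa 3 gave 1 gene for levodopa (range 0 to 1). The median difference of subunits and assembly factors ranged from -0.0949 to 0.0389 for MPTP against control (0.0389 also without control 2 and levodopa 2 together) and from -0.0603 to 0.0433 for levodopa against MPTP and from -0.147 to 0.0969 for the low dose against control when each library was left out. The causes were not tested.

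For single genes, signs turned in 12 values of 7 log2 fold changes. For Ndufab1 at the low dose against MPTP upper-quartile normalization gave -0.0127, and leaving out each library gave -0.0405 to 0.121. Leaving out each library gave -0.0337 to 0.0733 for Ndufv2 and -0.251 to 0.0864 for Ndufaf2 in that comparison. At the high dose against MPTP it gave -0.0437 to 0.0299 for Ndufs1, -0.0198 to 0.156 for Ndufaf4 and -0.0756 to 0.0488 for Ndufaf6. Between doses it gave -0.37 to 0.019 for Ndufaf4.

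With the replicate number as a block, 226 genes passed in all for the high dose against MPTP and 46 against control, 2 complex I genes passed for the low dose against MPTP (Ndufa2 had adjusted p = 0.0651), and no other count moved by more than 1.5 times. Deviations of same-numbered libraries correlated between -0.297 and 0.239, and in no comparison did all 3 pairs exceed 0.1, so the numbers were not treated as pairs.

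Groups of 3 limit what can be called, and the number of calls differed widely between edgeR, DESeq2 and fits of 2 groups. Opposite-strand exon overlaps touch 15 pairs of genes, and reads shared by gene copies cannot be assigned.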
